A study of Mus musculus with 4 samples.

Results

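The 6 regulatory genes Zbtb16, Egr1, Egr2, Egr3, Nab2 and Hivep3, which center on the transcription factor PLZF, were followed through the series. Zbtb16 encodes PLZF itself, Egr1, Egr2 and Egr3 are early growth response genes, Nab2 encodes an EGR partner and Hivep3 a zinc finger protein. They were picked by name, and all 6 were found among the 22474 gene symbols used. The RNA-seq data comprise 4 libraries from sorted cells of mouse spleen on the C57BL/6 background, with 1 library per group. WT iNKT and KO iNKT were invariant natural killer T cells, sorted by staining for the beta chain of the T cell receptor and with CD1d tetramers that carried PBS-57. WT CD44hi and KO CD44hi were CD44-high CD4+ T cells, sorted with antibodies to the same receptor chain, CD44 and CD4. The KO mice were Ezh2fl/fl CD4-Cre, in which Cre expressed in developing T cells is meant to remove the floxed part of Ezh2, the H3K27 methyltransferase of Polycomb repressive complex 2. The WT mice are labelled only as WT. The labels do not say whether the CD44hi sort left out cells that bind the tetramer, and ages, the number of mice and pooling are not given in the sources used here.

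PLZF is a BTB zinc finger factor that gives iNKT cells their innate-like program, and it is normally low in conventional CD4+ T cells. In iNKT precursors a strong T cell receptor signal induces the EGR factors, and Egr2 acts at the Zbtb16 gene. Nab2 binds EGR proteins and restrains their activity, and is itself induced with them. Hivep3 is a large zinc finger protein that has been placed upstream of PLZF in the innate-like lineages.

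Each group has 1 library, so differences lack a replicate check and no p-value was computed. Values are FPKM, fragments per kilobase of transcript scaled to a common library size, a scale on which levels of different genes can be compared within a library. Differences are of log2(FPKM + 1), which understates those of genes with low values. A gene was called when this difference reached 1 in size, which is 2-fold on that scale, and its FPKM was at least 1 in either library. Ratios are plain ratios of FPKM with 95% exact (Clopper-Pearson) intervals from estimated fragments, which cover counting error only. The estimated depth was 4.91e+06 fragments for WT iNKT, 5.29e+06 for KO iNKT, 1.81e+07 for WT CD44hi and 2.40e+07 for KO CD44hi.

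The whole-gene value of Ezh2 was 15.3 FPKM (WT) and 16.8 (KO) among iNKT libraries, and 28.9 (WT) and 18.5 (KO) among CD44hi libraries. Reads from undeleted exons stay in such a value, so it does not check the genotype labels. All T cell defining genes in the files (8 of 11 listed) were above 1 FPKM in every library, with sums of 1848 to 2563 FPKM. The Y-linked gene Eif2s3y was at 22.7 FPKM in WT CD44hi and listed at 0 in the other 3 libraries, while Xist, expressed from the inactive X of females, was between 46.8 and 80.02 FPKM in all 4. The CD44hi libraries also carried markers of other cells. The 10 B cell markers in the files summed to 1.55 FPKM (WT) and 1.72 (KO) among iNKT libraries, and 61.8 (WT) and 91.4 (KO) among CD44hi libraries. In the same order, 10 markers used for plasmacytoid dendritic cells summed to 162, 129, 187 and 754 FPKM, 14 myeloid markers to 39.5, 22.2, 458 and 736, and 6 red cell genes to 18.7, 17.7, 151 and 726. Most of the plasmacytoid sum in iNKT was Bst2 (101 FPKM in WT, 78.7 in KO), whereas Siglech was listed at 0 in both. Of 12 myeloid markers measured in the CD44hi pair, only 1 was called higher, Tyrobp (121 FPKM in WT, 305 in KO), with a median difference of 0.13.

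Zbtb16 was high in 3 of the 4 libraries. It lies on the minus strand of chromosome 9 from 48654297 to 48836222 (GRCm38, GENCODE M21), and no other annotated gene overlaps it. It had 28.2 FPKM (WT) and 63.1 (KO) among iNKT libraries, and 4.30 (WT) and 41.4 (KO) among CD44hi libraries. The order from the lowest was WT CD44hi, WT iNKT, KO CD44hi and KO iNKT, and no interval of the ratio between neighbours in this order reached 1. Among genes at 1 FPKM or more in each library, Zbtb16 stood at percentile 74.4 (WT) and 90.8 (KO) among iNKT libraries, and 21.5 (WT) and 84.8 (KO) among CD44hi libraries. KO over WT gave a ratio of 2.24 in iNKT (interval 2.05 to 2.45) and 9.64 in CD44hi (8.71 to 10.7). WT iNKT cells held 6.56 times the Zbtb16 of WT CD44hi cells (5.79 to 7.43), whereas KO iNKT held 1.52 times that of KO CD44hi (1.44 to 1.61). KO CD44hi was also above WT iNKT, at 1.47 times its level (1.36 to 1.59). These values rest on an estimated 398 fragments in the WT CD44hi library and 708 in WT iNKT.

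**Figure D1:**
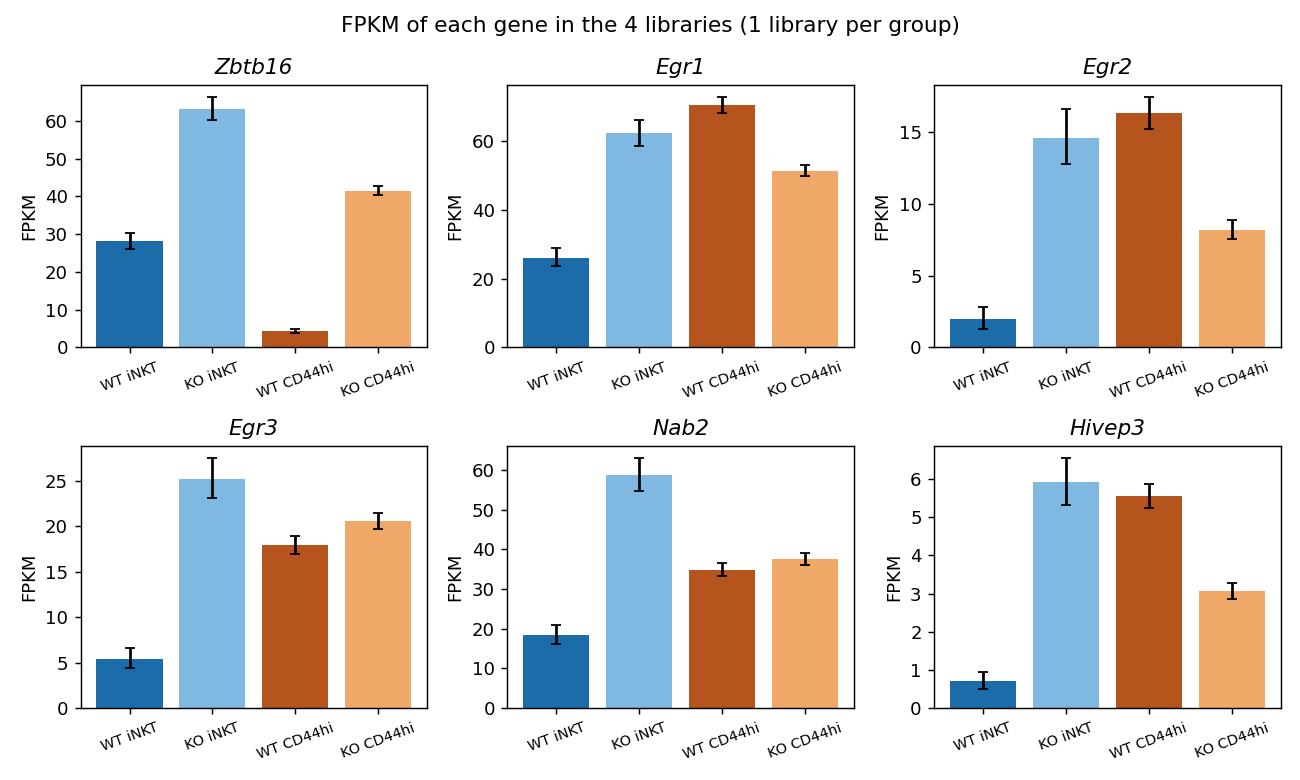
FPKM (vertical axes, linear from 0) of the 6 genes in the 4 libraries; each bar is 1 library and error bars are 95% counting intervals. Zbtb16 is lowest in WT CD44hi (4.30 FPKM), whereas the other 5 genes are lowest in WT iNKT.

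Egr2 was the EGR gene that differed most between the libraries. It lies on the plus strand of chromosome 10 from 67535475 to 67542188. Its level was 1.96 FPKM (WT) and 14.6 (KO) among iNKT libraries, and 16.3 (WT) and 8.20 (KO) among CD44hi libraries. WT iNKT alone was low, at percentile 8.14 of genes at 1 FPKM or more, while KO iNKT stood at percentile 54.2. Egr2 was 7.44-fold higher in KO iNKT than in WT iNKT (interval 5.03 to 11.4), from an estimated 29 fragments in WT. In CD44hi cells the difference ran the other way, with a KO to WT ratio of 0.502 (0.451 to 0.558). On the log2(FPKM + 1) scale that difference was -0.91, just inside the 2-fold rule, and Egr2 was called lower when libraries were scaled to the Cd3 genes (-1.003) or to a larger common total (-1.03), but not when scaled to their mean sum (-0.98). KO iNKT and WT CD44hi did not differ beyond counting error (ratio 0.894, interval 0.769 to 1.03). The promoter window is shown because Egr2 is the member placed directly upstream of Zbtb16. Of its 5 windows in RefSeq 4 held a CArG box, but these are not separate boxes. The windows from 67537619, 67537620 and 67537680 overlap and share the same box, and that from 67537316 holds a different one. The 250 bases upstream of the start in 1 of the overlapping windows (RefSeq, GRCm38.p6, chr10:67537620-67537869, plus strand, 5′ to 3′) were as follows, with a CArG box in capitals.
Egr2: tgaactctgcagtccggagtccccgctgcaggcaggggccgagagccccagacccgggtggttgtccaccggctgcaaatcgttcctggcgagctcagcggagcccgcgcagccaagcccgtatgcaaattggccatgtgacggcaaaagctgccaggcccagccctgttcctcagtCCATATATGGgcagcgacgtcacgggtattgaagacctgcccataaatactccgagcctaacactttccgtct
The CArG box is the motif read by serum response factor, through which growth and antigen receptor signals reach immediate early genes, and its first base lies 73 bases upstream of the start. Both strands were searched, and 1.47% of 32851 windows of this length held a match. The window is 61.2% G and C with 17 CpG dinucleotides, against medians of 52.4% and 6 over all windows. A match describes the letters and is not a measured binding site.

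Egr3 followed Egr2 in the iNKT libraries but not in the CD44hi libraries. It is on the plus strand of chromosome 14 from 70077203 to 70082614. Its level was 5.43 FPKM (WT) and 25.3 (KO) among iNKT libraries, and 18.0 (WT) and 20.6 (KO) among CD44hi libraries. WT iNKT again stood apart as the low library, and the other 3 lay within 1.41-fold of each other. KO over WT gave a ratio of 4.65 in iNKT (interval 3.77 to 5.79) and 1.14 in CD44hi (1.07 to 1.23). Egr3 has RefSeq transcripts of unequal length, and the longest, 3940 bases, was used for its fragment estimates.

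Egr1 had the highest level of the EGR genes in every library. It is on the plus strand of chromosome 18 from 34859823 to 34864984. Its level was 26.1 FPKM (WT) and 62.3 (KO) among iNKT libraries, and 70.6 (WT) and 51.4 (KO) among CD44hi libraries. The lowest library was WT iNKT and the highest WT CD44hi. KO over WT gave a ratio of 2.39 in iNKT (interval 2.12 to 2.69) and 0.729 in CD44hi (0.697 to 0.763). Because Egr2 and Egr3 differed more than Egr1 between the iNKT libraries, the makeup of the EGR transcripts differed too. The Egr1 to Egr2 ratio was 13.3 (WT) and 4.27 (KO) among iNKT libraries, and 4.32 (WT) and 6.27 (KO) among CD44hi libraries. The share of Egr2 in the summed FPKM of the 3 genes was 5.86%, 14.3%, 15.6% and 10.2% in the same order.

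Hivep3 had the lowest level of the 6 genes in every library except WT CD44hi, where Zbtb16 was lower. It spans chromosome 4 from 119733784 to 120138045 on the plus strand, and a predicted protein-coding gene, AL607142.1, lies inside it on the same strand. Its level was 0.702 FPKM (WT) and 5.91 (KO) among iNKT libraries, and 5.55 (WT) and 3.06 (KO) among CD44hi libraries. WT iNKT alone was below 1 FPKM, with an estimated 41 fragments over a transcript of 11838 bases. KO over WT gave a ratio of 8.42 in iNKT (interval 6.08 to 11.9), the largest plain ratio of the 6 genes in that pair, and 0.551 in CD44hi (0.504 to 0.602). KO iNKT and WT CD44hi did not differ beyond counting error (ratio 1.07, interval 0.946 to 1.20). Among its relatives, Hivep1 had 4.08 FPKM (WT) and 2.91 (KO) in iNKT, with 9.79 and 8.39 in CD44hi. Hivep2 had 18.1 and 15.9 in iNKT, with 28.7 and 16.9 in CD44hi. Hivep2 was 25.8 times the level of Hivep3 in WT iNKT and 2.69 times in KO iNKT.

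Nab2, the corepressor that EGR factors induce, was higher in KO iNKT than in any other library. It lies on the minus strand of chromosome 10 from 127660918 to 127668568. Its level was 18.4 FPKM (WT) and 58.8 (KO) among iNKT libraries, and 34.9 (WT) and 37.5 (KO) among CD44hi libraries. The CD44hi libraries were close to each other, with a KO to WT ratio of 1.07 (interval 1.01 to 1.15), against 3.19 in iNKT (2.76 to 3.71). Nab1, its relative, had 14.2 FPKM (WT) and 22.5 (KO) in iNKT, with 20.7 and 18.8 in CD44hi. The Nab2 to Nab1 ratio was 1.3 in WT iNKT and 2.61 in KO iNKT. Stat6 overlaps the end of Nab2 on the opposite strand, the antisense gene Gm16229 lies inside it, and Nemp1 (Tmem194 in the files) overlaps its start. The library kit does not mark the strand, so reads in these overlaps cannot be assigned to 1 gene. Stat6 was at 54.7 FPKM in WT iNKT and 40.6 in KO iNKT, and Tmem194 at 4.14 and 4.74. Gm16229 had no value, and the part of reads in the overlaps was not tested. The promoter window of Nab2 is shown because it holds a match to the EGR core letters GCGTGGG, which lie on the other strand and so read CCCACGC here. It covers the 250 bases upstream of the start (RefSeq, GRCm38.p6, chr10:127666704-127666953, minus strand, 5′ to 3′), with the match in capitals.
Nab2: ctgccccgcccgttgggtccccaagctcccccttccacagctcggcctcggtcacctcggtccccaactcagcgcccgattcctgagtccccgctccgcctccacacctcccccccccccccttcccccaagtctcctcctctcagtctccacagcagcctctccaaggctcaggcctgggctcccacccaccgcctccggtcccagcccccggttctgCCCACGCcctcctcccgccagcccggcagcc
The match begins 31 bases upstream of the start. On both strands, 4.30% of all windows held GCGTGGG and 4.70% held the longer GCGNGGGCG, which can contain it; neither window shown held the longer motif. Egr1 was left out of this promoter search. Of the other members, Egr2, Nab2 and Hivep3 have a promoter entry, and the Hivep3 window held none of the motifs.

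How the 6 genes differ with genotype inside the PLZF lineage was read from the iNKT pair, KO against WT. All 6 were called higher and 0 lower, with log2(FPKM + 1) differences of 1.14 for Zbtb16, 1.22 for Egr1, 1.62 for Nab2, 2.02 for Hivep3, 2.03 for Egr3 and 2.40 for Egr2. Over all 10817 genes measured in this pair, 6.08% were called higher and 3.34% lower. The median of the 6 genes was 1.82 and that of all genes 0.05. Of the genes called, 64.6% were higher, or 76.7% with libraries scaled to Cd3e, Cd3d and Cd3g, under which all 6 stayed called higher. The genes were chosen with earlier results of these data known, so the count describes them and does not stand as independent support. In sorted bulk cells, a larger share of cells with a transcript and more transcript per cell cannot be told apart. Several marker lists moved beside them. Of 6 iNKT-associated genes 1, Zbtb16 itself, was called higher and 3 lower (Il2rb, Cxcr6 and Plac8), with a median of -1.12, and their sum was 1918 FPKM in WT iNKT and 679 in KO iNKT. Of 9 measured NK cell and ILC markers 2 were called higher (Klra8 and Eomes) and 5 lower, with sums of 1089 and 414 FPKM. Most of these sums came from Nkg7 (437 FPKM in WT iNKT, 73.5 in KO iNKT) and Il7r (598 and 316). Ncr1 was below 1 FPKM in both iNKT libraries, so the sums do not measure a share of NK cells or ILC. Of 5 measured follicular helper genes 4 were called higher, and the 6 markers summed to 17.0 FPKM in WT iNKT and 252 in KO iNKT. The part of these lists in the result was not tested.

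**Figure D2:**
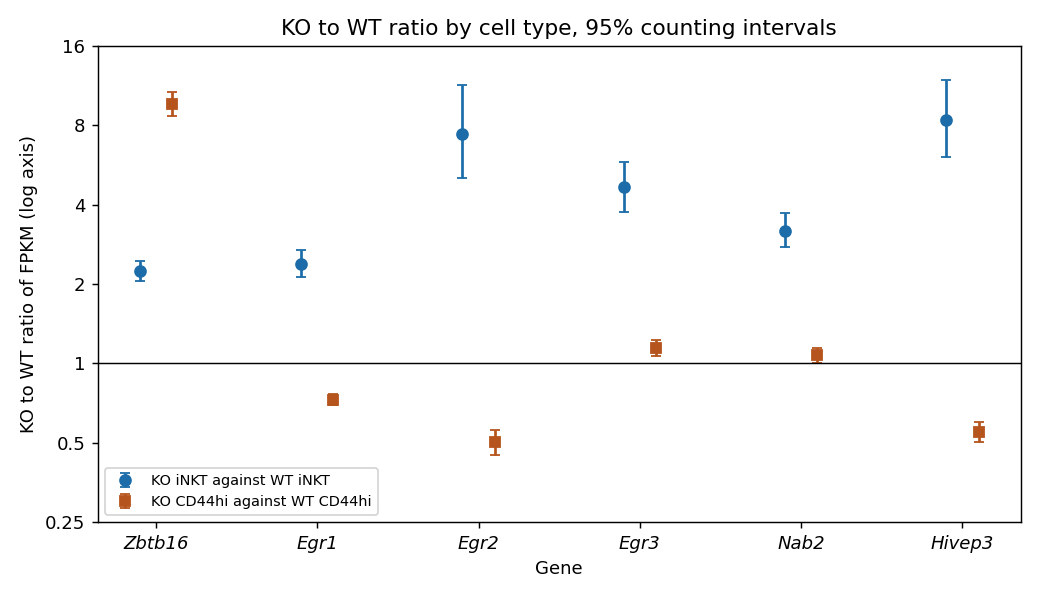
KO to WT ratio of FPKM (vertical axis, log scale) for each gene in iNKT (circles) and CD44hi (squares), with 95% counting intervals and a line at 1. All circles lie above 2, whereas among the squares Zbtb16 is at 9.64 and the other 5 lie between 0.502 and 1.14.

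The same genotype question was asked of the CD44hi libraries, of cells sorted as CD44-high CD4+ T cells. Zbtb16 was called higher, with a log2(FPKM + 1) difference of 3.0, and none of the other 5 was called in either direction. Of all 11353 genes measured, 2.44% were called higher and 1.14% lower. The other differences were -0.91 for Egr2, -0.69 for Hivep3, -0.45 for Egr1, 0.10 for Nab2 and 0.19 for Egr3. Of the 658 genes called higher in KO iNKT and the 277 called higher in KO CD44hi, 67 were shared, which is 10.2% of the first list and 24.2% of the second. Zbtb16 was the member among them. Several other cell markers moved in the same pair. Of 10 plasmacytoid dendritic cell markers 8 were called higher, and Siglech, a defining one, had 0 FPKM listed for either iNKT library and had 11.1 FPKM (WT) and 75.7 (KO) in CD44hi. The 10 B cell markers had 9 measured and 0 called, with a median difference of 0.56. All 5 measured red cell genes were called higher. Regulatory T cell markers summed to 233 FPKM in WT CD44hi and 84.8 in KO CD44hi, and follicular helper markers to 217 and 84.3. Among 6 iNKT-associated genes, Zbtb16, Klrb1c, Plac8 and Ly6c2 were called higher, Cxcr6 had a difference of 0.85 and Il2rb one of -0.80. Y-linked transcripts were present in WT CD44hi and not in KO CD44hi, so the sex of the mice differed in part between these libraries and cannot be told apart from genotype. The part of other cells in the values of Zbtb16 and the EGR genes was not tested.

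The KO to WT difference was set side by side between the cell types by subtracting the iNKT difference from the CD44hi difference. For Zbtb16 the result was 1.87, the larger difference being in CD44hi. For the other 5 genes it was negative, at -1.52 for Nab2, -1.67 for Egr1, -1.85 for Egr3, -2.71 for Hivep3 and -3.31 for Egr2. Of 11716 genes measured in any library, 5.37% had a value of 1 or more and 6.15% a value of -1 or less. With 1 library per group this difference could not be tested. Sex, in part, and markers of other cells also differed within the CD44hi pair and cannot be told apart from genotype. Beside the summed EGR transcripts, Zbtb16 thus took different positions. The summed FPKM of Egr1, Egr2 and Egr3 was 33.5 (WT) and 102 (KO) among iNKT libraries, and 105 (WT) and 80.2 (KO) among CD44hi libraries. The ratio of Zbtb16 to this sum was 0.841 (WT) and 0.618 (KO) among iNKT libraries, and 0.0410 (WT) and 0.517 (KO) among CD44hi libraries. WT CD44hi had the highest EGR sum and the lowest Zbtb16.

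**Figure D3:**
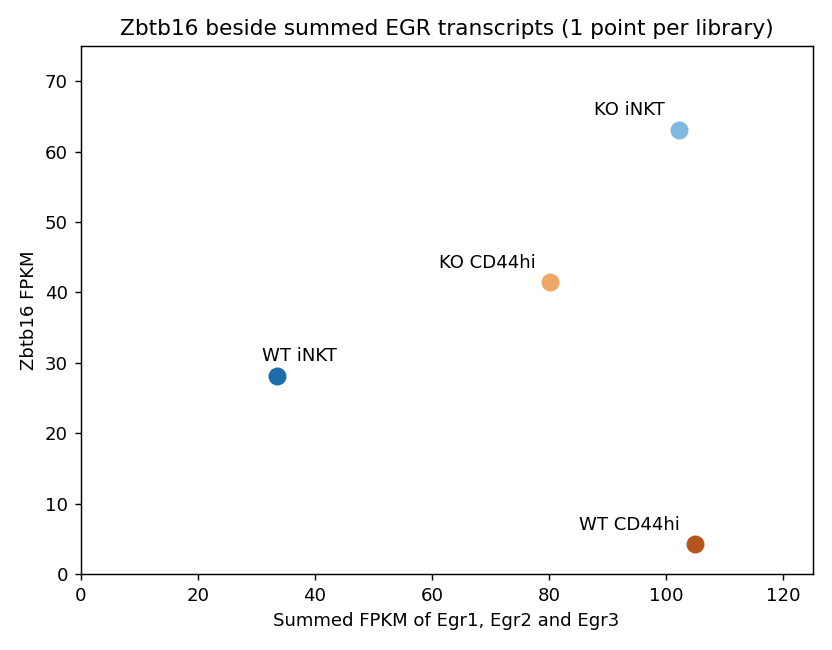
Zbtb16 FPKM (vertical axis) against the summed FPKM of Egr1, Egr2 and Egr3 (horizontal axis), 1 point per library. WT CD44hi and KO iNKT have nearly the same EGR sum (105 and 102 FPKM) but 4.30 and 63.1 FPKM of Zbtb16.

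How the lineages differ within a genotype was read from iNKT against CD44hi in WT and in KO. In WT, Zbtb16 was called higher in iNKT (log2 difference 2.46), and Egr1 (-1.40), Egr3 (-1.56), Hivep3 (-1.94) and Egr2 (-2.55) were called lower. Nab2 had a difference of -0.89 and was not called. Over 11217 measured genes, 3.64% were called higher in WT iNKT and 10.9% lower. In KO none of the 6 was called, and all had higher values in iNKT, with differences from 0.27 for Egr1 to 0.77 for Hivep3. The background there was 3.02% higher and 9.07% lower of 11470 genes. These 4 comparisons share libraries in pairs, so they are not independent of each other. The iNKT and CD44hi libraries also differ in depth and in the rows their files list, and cell type and any technical difference between the pairs cannot be told apart. In the WT pair sex differed in part too, with Eif2s3y listed at 0 in iNKT and at 22.7 FPKM in CD44hi. All 9 measured B cell markers and all 6 follicular helper markers were called lower in WT iNKT. Of 14 myeloid markers, 12 were called lower there and 2 higher. The part of sex and of other cells in these differences was not tested.

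Signalling genes that lead from the T cell receptor to EGR induction were mostly within 2-fold between KO and WT, as were most of all genes. Over all genes measured, 6.08% were called higher and 3.34% lower in the iNKT pair, and 2.44% and 1.14% in the CD44hi pair. The same shares apply to the lists described below. Of 32 such genes, all measured, 1 was called higher and 3 lower in KO iNKT, with a median difference of -0.06, and 0 were called in KO CD44hi, with a median of -0.13. Nfatc1, the calcium-regulated factor that acts with EGR proteins, was at 58.5 FPKM in WT iNKT and 146 in KO iNKT. Dusp6 and Dusp5, feedback phosphatases of the ERK pathway, were called lower. In iNKT, Dusp6 had 51.7 FPKM (WT) and 14.3 (KO), and Dusp5 had 51.5 and 18.1. Rasgrp1, the Ras activator of T cells, was at 80.1 and 36.5. Elk4, a partner of serum response factor, was at 10.8 and 21.7 FPKM without reaching the rule.

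Most other immediate early genes lay within 2-fold in KO iNKT, as did most of all genes, whereas Egr1, Egr2 and Egr3 were called higher. Over all genes in that pair, 6.08% were called higher and 3.34% lower. Of 22 measured genes of this class other than EGR, 1 was called higher and 3 lower in KO iNKT (median -0.01). Fos had 167 FPKM (WT) and 197 (KO), Fosb 42.6 and 54.4, and Nr4a1, named after its values were seen, 59.9 and 68.3. Nr4a2 was called higher (0.823 to 17.0 FPKM), and Jun was called lower (69.0 to 18.0), as were Klf4 and Klf6. In KO CD44hi 3 of 23 were called lower and 0 higher, with a median of -0.53, against 1.14% lower and 2.44% higher over all genes. Fos had there 182 FPKM (WT) and 108 (KO), and Cd69, an early activation antigen, at 70.1 and 34.0. Of the close EGR relatives, Egr4 had 1.23 FPKM in KO iNKT and a listed value of 0 in WT iNKT, and Wt1, also named afterwards, was listed at 0 in all 4 libraries.

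Genes placed downstream of EGR factors in T cells went in both directions in KO iNKT, with 6 of 20 measured called higher and 5 lower (median -0.31). Id3, an inhibitor of E proteins that EGR factors induce, was 15.4-fold higher (interval 12.1 to 19.8), at 11.4 FPKM in WT iNKT and 175 in KO iNKT. Nrgn, a calmodulin-binding protein, was at 6.75 and 172 FPKM. Lag3, an inhibitory receptor, was at 0.538 and 11.3, and Nrp1 at 8.84 and 37.6. Il2rb, the beta chain of the IL-2 and IL-15 receptors that EGR2 helps to induce in iNKT cells, was instead 4.11-fold lower (3.98 to 4.25), at 814 and 198 FPKM. Fasl, Bcl2l11 and Prdm1 were lower as well, with Prdm1 at 12.4 and 1.74. In KO CD44hi, 1 of 23 was called higher, Nrgn (4.34 to 14.5 FPKM), and 5 lower, among them Nfil3 (6.52 to 1.66) and Socs3 (49.8 to 23.6), with a median of -0.45.

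Genes placed downstream of PLZF in innate-like T cells were split. For KO iNKT, 3 of 23 measured were called higher and 7 lower (median -0.35). Il4 was at 52.3 and 118 FPKM and Ccr7, a homing receptor of naive cells, at 13.2 and 34.6. Plac8 was at 155 and 60.1 and Rora, named after its values were seen, at 16.5 and 6.22. In KO CD44hi, 4 of 23 were called higher and 2 lower (median 0.02). Klrb1c, the NK1.1 gene, was 3.93-fold higher (interval 3.62 to 4.26), at 14.9 and 58.5 FPKM. Plac8 was at 42.0 and 146, and Il18rap, part of the IL-18 receptor, at 13.3 and 29.7. Icos, which PLZF-expressing cells carry at high levels, had 76.6 FPKM (WT) and 77.5 (KO) there. Il4, the cytokine that PLZF-expressing cells store as transcript, was at 8.03 and 11.9. Bach2, a repressor that PLZF holds down, lay between 3.15 and 5.35 FPKM in the 4 libraries.

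**Figure D4:**
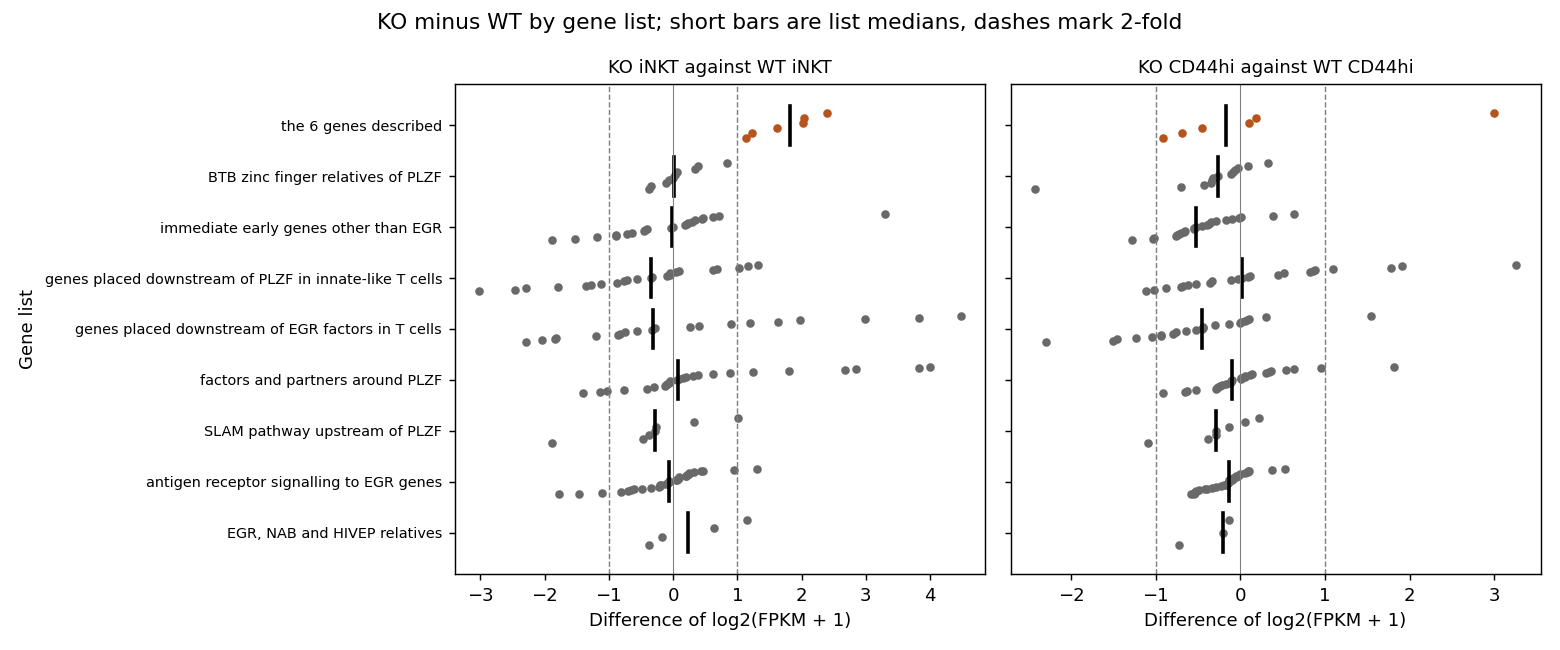
Difference of log2(FPKM + 1), KO minus WT (horizontal axes), for measured genes of 8 lists and for the 6 genes described, in iNKT (left) and CD44hi (right). Each point is a gene, short bars are medians and dashed lines mark 2-fold; in iNKT all 6 points lie beyond the right dashed line and the list medians lie between -0.35 and 0.23.

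Factors that act with PLZF in lineage choice were split. Of 26 measured in the iNKT pair, 6 were called higher and 3 lower (median 0.07). Beside Id3, Tox2 was at 0.658 and 25.6 FPKM, Myb at 7.04 and 56.6, and Tox, a nuclear factor needed for iNKT development, at 6.58 and 47.5. Id2, the counterpart of Id3 in effector cells, was 2.66-fold lower (interval 2.55 to 2.77), at 1172 and 441 FPKM, and Runx3 was at 24.8 and 10.7. Cul3, the ubiquitin ligase that PLZF carries to chromatin, was between 66.4 and 93.1 FPKM in the 4 libraries. Tcf12 lay between 23.9 and 35.3 and Runx1 between 16.2 and 26.8. In KO CD44hi 1 of 27 was called higher, Tcf4 (2.99 to 13.1 FPKM), which is also a defining factor of plasmacytoid dendritic cells. Of the SLAM receptor pathway, which sends the second signal to PLZF in iNKT precursors, Slamf6 was called higher in KO iNKT (74.3 to 151) and Slamf7 lower (24.6 to 5.93). Sh2d1a, its adaptor SAP, was at 127 and 159, and in KO CD44hi Slamf1 was called lower (16.2 to 7.08).

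Relatives of PLZF with a BTB domain, Bach2 among them, were mostly within 2-fold, as were most of all genes. Over all genes measured, 6.08% were called higher and 3.34% lower in KO iNKT, and 2.44% and 1.14% in KO CD44hi. Of 10 measured in the iNKT pair 0 were called, and in the CD44hi pair 1 of 13 was, Zbtb32, which was lower (11.4 to 1.31 FPKM). Zbtb7b, the CD4 lineage factor ThPOK, was between 48.4 and 59.6 FPKM in the 4 libraries. Genes beside the members on the chromosome, a window chosen after the values were seen, were also mostly within 2-fold. Of 23 genes within 200 kilobases of a member whose FPKM reached 1 somewhere, 1 was called higher in KO iNKT, Usp28 beside Zbtb16 (3.52 to 8.34 FPKM), and 1 lower, 9930012K11Rik beside Egr3 (8.16 to 3.52). None of the 23 was called in KO CD44hi, where Usp28 was at 7.32 and 7.07.

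The genes most like each member were named by the distance between log2(FPKM + 1) profiles over the 4 libraries, each centred on its mean, among 8301 named genes whose FPKM reached 5 somewhere. Closest to Zbtb16 were Gpnmb (distance 0.55), Chdh (0.55), Klra3 (0.62), Fam174b (0.68) and Klra23 (0.78). Chdh, an enzyme of choline metabolism, had 28.2 FPKM (WT) and 37.6 (KO) among iNKT libraries, and 3.24 (WT) and 27.6 (KO) among CD44hi libraries. Klra genes share near-identical sequence, so values of single members are uncertain. The profiles of the other 5 members lay far from Zbtb16, at 2.66 for Nab2 to 3.79 for Egr2. Closest to Egr2 were Tox (0.37), Spry1 (0.38), Marcksl1 (0.43), Hivep3 (0.43) and Synpo (0.47). Spry1, a feedback inhibitor of receptor signalling to ERK, had 1.61 FPKM (WT) and 8.62 (KO) in iNKT, with 11.3 and 5.10 in CD44hi, the same order of libraries as Egr2. Tcf7 and Ccr4 were among the 5 closest to Egr3, Sdcbp2 and Ndrg2 among those to Egr1, Gcat and Gpr146 among those to Nab2, and Egln3 and Cst7 among those to Hivep3. These distances describe 4 libraries and say nothing of shared control.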

How the data were processed

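For each library the authors deposited a table of FPKM by gene symbol, as its header states. Cufflinks 2.0.2, TopHat 1.3.2, Bowtie2 2.0.0 and build mm10 are listed, with no role, per the submitters' processing notes. The annotation, filters and strand setting are not given in the sources used here. In the CD44hi files, 26 symbols had become dates or numbers and were left out. Rows sharing a symbol (240 symbols) were summed, 784 small RNA symbols were left out, and 22474 remained. The spacing of low FPKM values gave an estimate of depth, over genes of at least 3000 bases, with GENCODE M21 transcript lengths (longest transcript linked to RefSeq). Of low values, 70.2% to 71.9% lay within 0.1 of a whole fragment. Calls used the pseudocount and the 1 FPKM minimum given with the results. The rule was tested on simulated data that held counting error only, with changes larger than 2-fold in genes at 5 FPKM or more. Every comparison was simulated from the WT iNKT levels. The changed genes thus started above the levels of Egr2 and Hivep3 in WT iNKT, and none that low was simulated as raised. The members and lists were chosen with earlier results of these data known. Besides the members, list genes were named by the size of their difference among those at 5 FPKM or more, with a few fixed in every case; some are not reported here. No test of a difference was possible with 1 library per group. Python 3.11.15, pandas 2.3.3, NumPy 2.4.6 and SciPy 1.17.1 were used. Alternatives changed the pseudocount, the minimum and the scaling.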

Additional observations from a re-analysis of the deposited data

Results flagged for a closer look

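The KO to WT difference ran in opposite directions in the 2 cell types for 3 of the 6 genes, called higher in KO iNKT and below WT in KO CD44hi. None of the 3 was called in CD44hi, where the differences were -0.45 for Egr1, -0.91 for Egr2 and -0.69 for Hivep3. On the log2(FPKM + 1) scale the CD44hi difference less the iNKT difference was -1.67 for Egr1, -3.31 for Egr2 and -2.71 for Hivep3. Each rests on 1 library per group, and the difference between cell types was not tested.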

How the results depend on the processing

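Each value was recomputed under 10 alternatives, 8 planned (pseudocounts of 0.1 and 0.5, no minimum, a minimum of 5 FPKM, and scaling by the median ratio, upper quartiles, T cell genes or a larger common total) and 2 chosen after seeing the data, scaling to Cd3e, Cd3d and Cd3g and scaling to the mean sum of the libraries. The larger total divides every FPKM by 0.361 to 0.380, so it also lowers the effective pseudocount and minimum. Of 100 recomputed counts of members called, 98 stayed within 1.5 times the main count. The exceptions were both in KO CD44hi against WT CD44hi, where 1 member, Egr2, was called lower under scaling to the larger total and under scaling to the Cd3 genes, against 0 as reported and 0 with the mean sum. None of 300 recomputed single values changed sign where it was called, and 24 moved beyond counting error. Changing the minimum cannot alter a log2 difference, so the values under no minimum and under 5 FPKM equal the main ones. Removing the minimum also cannot undo a call. The 6 calls in KO iNKT held under all 10, with Hivep3 between 2.01 and 2.90 and Zbtb16 between 1.12 and 1.35. Scaling to the Cd3 genes moved the median of all genes in the iNKT pair from 0.05 to 0.25 and the share of higher among called genes from 64.6% to 76.7%. In WT iNKT against WT CD44hi it moved that median from -0.06 to -0.26, and Nab2 was then called lower (-1.09). Counts over all genes moved by more than 1.5 times under 3 alternatives. The main counts higher and lower were 658 and 361 in the iNKT pair and 277 and 129 in the CD44hi pair. They were 981 and 555, and 492 and 223, with a pseudocount of 0.1, and 1060 and 612, and 445 and 243, with the larger total. With the mean sum, which keeps the level, they were 640 and 373, and 247 and 146. With a minimum of 5 FPKM they were 391 and 259, and 165 and 91. In WT iNKT against WT CD44hi, 1224 genes were lower, against 694 with that minimum and 1853 with the larger total. In KO iNKT against KO CD44hi, 346 were higher, against 584 with a pseudocount of 0.1 and 590 with the larger total, and 1040 were lower, against 577 with the 5 FPKM minimum. Depth limits Egr2 and Hivep3 in WT iNKT most. No paired analysis was possible because each group is 1 library.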
